A study of Mus musculus with 20 samples.

Results

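The 10 genes described here encode ligands and receptors of the vascular endothelial growth factor (VEGF) and angiopoietin systems: Vegfa, Vegfb, Vegfc, Angpt1, Angpt2, Kdr, Nrp1, Nrp2, Tek and Tie1. The list was drawn up by gene symbol with earlier results of these data known, although its rule used no measured value, and all 10 were found among the 24062 gene symbols of the count files and passed the filter on low counts. The libraries were made from dermal lymphatic endothelial cells (LECs), sorted as live CD31+podoplanin+ cells from the ear skin of wild type C57BL/6 mice (C57BL/6N in the study's methods) at post natal day 56, with no treatment, transgene or deletion in any group. CD31 marks endothelial cells and podoplanin separates lymphatic from blood endothelium, although epidermal cells and fibroblasts also make podoplanin. Ears were taken at zeitgeber time ZT1, ZT7, ZT13 and ZT19, counted in hours from light onset in a cycle of 12 h light and 12 h dark, and each time point had 5 libraries. Each library was a pool of 4 ears from 2 mice, so that differences between individual mice were not measured. The study's methods describe cabinets in which the light cycle of mice was shifted, and which libraries came from shifted animals is not given in the sources used here.

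VEGF ligands act on receptor tyrosine kinases: VEGF-A (Vegfa) signals mainly through VEGFR-2 (Kdr), and VEGF-C (Vegfc) drives lymphatic growth through VEGFR-3 (Flt4) and, once processed, also through VEGFR-2. Neuropilins are co-receptors without a kinase of their own, of which neuropilin-2 (Nrp2) is characteristic of lymphatic vessels and veins and neuropilin-1 (Nrp1) of arteries. The angiopoietins bind the receptor TIE2 (Tek), with angiopoietin-1 (Angpt1) a steady agonist made mostly by perivascular cells and angiopoietin-2 (Angpt2) a context-dependent ligand released by endothelial cells. TIE1 (Tie1) has no ligand of its own among the angiopoietins and modulates TIE2.

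RefSeq promoter sequences (build GRCm38.p6) were found for 8 of the 10 genes and for neither Angpt1 nor Angpt2. There were 9 windows, since Vegfa had a second start site, which lies inside the gene and is not shown. The 250 bases before the start site were searched on both strands for the E-box CACGTG, to which the clock factors BMAL1 and CLOCK bind, and for the GC box GGGCGG, the letters bound by SP factors. None of the 9 windows held the E-box, against 6.02% of the 32851 promoters of the same length, and 7 of 9 held a GC box, against 32.7%. The windows were rich in G and C, with 59.2% to 76.4% in all but that of Tek (51.2%). The median of all promoters was 52.4%, and the shares above are not corrected for this. The promoters of Nrp2 and Vegfb are shown because these genes varied together across libraries, and those of Vegfa and Vegfc because the levels of these ligands are set side by side below. Only bases before the first annotated base of each gene are shown, 5′ to 3′ on the strand of the gene, with the GC box in capitals wherever it occurs on either strand. The windows lie at chr1:62703067-62703284 on the plus strand for Nrp2, chr19:6987652-6987901 on the minus strand for Vegfb, chr17:46032378-46032627 on the minus strand for Vegfa and chr8:54077282-54077531 on the plus strand for Vegfc.
Nrp2: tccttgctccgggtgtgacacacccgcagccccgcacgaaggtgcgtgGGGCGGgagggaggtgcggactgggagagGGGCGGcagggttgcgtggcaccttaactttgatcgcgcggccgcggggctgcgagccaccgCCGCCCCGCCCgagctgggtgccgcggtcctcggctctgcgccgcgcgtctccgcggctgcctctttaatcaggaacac
Vegfb: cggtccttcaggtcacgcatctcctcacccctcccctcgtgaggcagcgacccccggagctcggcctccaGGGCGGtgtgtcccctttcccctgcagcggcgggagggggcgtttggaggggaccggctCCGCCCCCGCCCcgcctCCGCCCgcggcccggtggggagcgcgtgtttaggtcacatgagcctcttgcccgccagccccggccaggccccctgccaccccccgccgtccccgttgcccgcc
Vegfa: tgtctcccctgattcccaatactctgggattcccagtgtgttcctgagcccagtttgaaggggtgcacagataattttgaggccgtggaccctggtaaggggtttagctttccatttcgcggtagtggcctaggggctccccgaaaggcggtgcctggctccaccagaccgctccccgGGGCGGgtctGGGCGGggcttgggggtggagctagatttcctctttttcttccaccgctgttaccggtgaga
Vegfc: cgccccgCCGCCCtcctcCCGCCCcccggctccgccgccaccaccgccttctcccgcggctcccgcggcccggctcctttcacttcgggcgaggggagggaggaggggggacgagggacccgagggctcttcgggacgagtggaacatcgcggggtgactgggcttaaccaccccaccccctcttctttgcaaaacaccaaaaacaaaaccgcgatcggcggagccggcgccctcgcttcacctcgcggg
The shown part held 4 GC boxes in Nrp2, 4 in Vegfb, 2 in Vegfa and 2 in Vegfc, and a pair of those in Nrp2 overlap by a base. The hypoxia response core, ACGTG or GCGTG, occurred in 5 of the 9 windows, among them 2 times in Nrp2 and 2 times in Vegfb, against 38.6% of all promoters, and for Vegfa in the second window only. The ETS core, CAGGAA or CCGGAA, occurred in 5 of the 9 windows, those of Nrp2, Tek, Tie1 and Kdr and the shown one of Vegfa, against 35.1%. These matches describe the letters only.

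The libraries held between 4475111 and 42002363 reads on genes, with a median of 9379794. The share of reads falling on a gene, out of those on a gene or on none, ran from 12.7% to 81.6%. It was 20.2% to 29.5% at ZT1 and 35.0% to 81.6% at ZT19, so that share and time point cannot be told apart between these groups. Of the 10 LEC markers, 9 had reads in every library, with 2702 ± 934 normalized counts for Prox1, 16601 ± 6602 for Lyve1 and 1690 ± 1044 for Pdpn (SD, n = 20), and none of these 9 was called among the time points, against 0.422% of all genes. Ccl21a was listed at 0 in all 20 libraries and could not be tested. The 14 keratinocyte markers also gave many reads, and their summed level was 10852 to 31892 at ZT13 and 96179 to 188931 at ZT19, with 36397 to 71300 at ZT1 and 59977 to 178316 at ZT7. Of these 14 markers, 7 were called among the time points, namely Krt14, Krt5, Krt15, Krt79, Perp, Sfn and Epcam.

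Per length of exon, the receptors Tie1 and Kdr and the ligand Angpt2 had the highest levels of the 10 genes and Vegfc, Angpt1 and Nrp1 the lowest. Levels are given as normalized counts per kb, which are the counts after correction for library size divided by the exon length of the gene. Tie1 came first with 872 ± 345 (SD, n = 20), followed by Angpt2 with 686 ± 353 and Kdr with 601 ± 188. Angpt2 and Kdr did not differ beyond their spread, since Angpt2 was the higher in 10 of 20 libraries, and Tie1 exceeded Angpt2 in 13 of 20. Vegfb followed with 367 ± 160, Tek with 241 ± 68.9 and Nrp2 with 192 ± 119, and Tek exceeded Nrp2 in 15 of 20 libraries. Vegfa had 67.1 ± 29.4 per kb. Then came Nrp1 with 9.88 ± 10.4, Angpt1 with 7.79 ± 7.90 and Vegfc with 4.68 ± 6.92, and neither neighbouring pair among these differed in more than 13 of 20 libraries. Among the tested genes with a known exon length, Tie1 lay at the 97.0th percentile of level per kb, Kdr at the 95.4th, Vegfa at the 63.7th and Vegfc at the 8.99th. With the longest transcript in place of all exons as the length, Kdr moved above Angpt2 and Nrp2 above Tek. The step from Vegfa to Nrp1 held in 20 of 20 libraries.

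**Figure D1:**
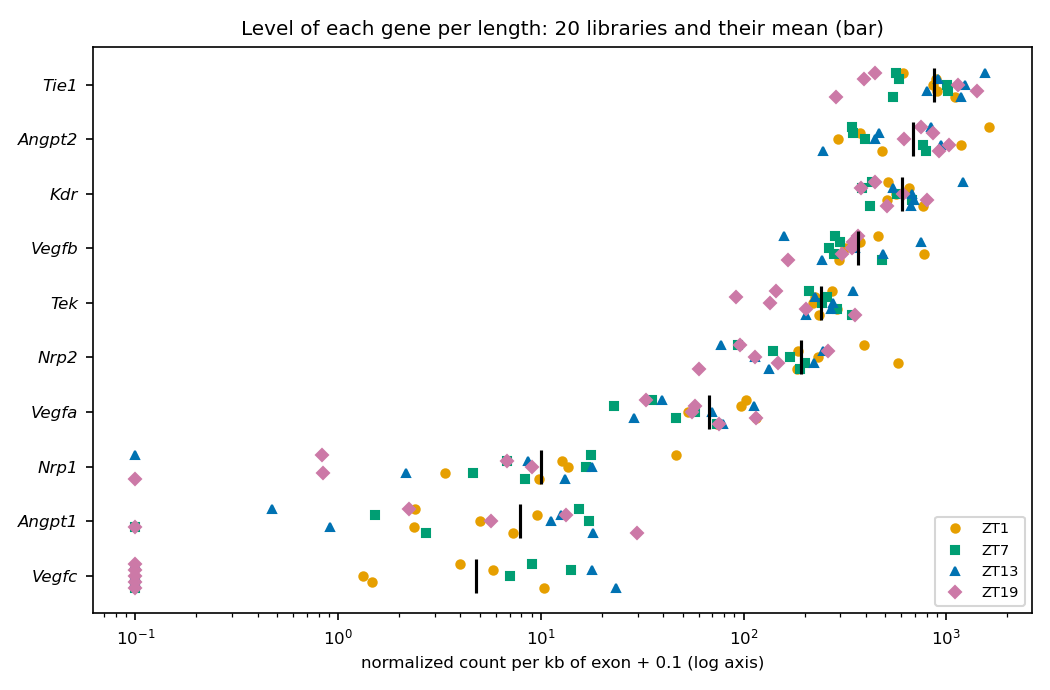
Level of each gene per kb of exon in each of the 20 libraries, on a log axis with 0.1 added so that libraries without a count can be drawn; symbols mark the time points and the vertical bar the mean. Tie1, Angpt2 and Kdr overlap at the top, and Nrp1, Angpt1 and Vegfc lie at the bottom, where their highest libraries (46.3, 29.6 and 23.4) overlap the lowest of Vegfa (22.9), with 10 libraries of Vegfc at 0.

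None of the 10 genes was called among the 4 time points by edgeR's quasi-likelihood test at an adjusted p under 0.05, a rule that called 0.422% of all genes. At an unadjusted p under 0.05 the test named 2 of the 10, the co-receptor Nrp2 and the ligand Vegfc, a share near the 15.7% of all genes that pass this limit. The range between the highest and the lowest time point had a median of 0.78 on the log2 scale over the 10 genes and of 1.204 over all genes tested. Of the 10, 4 had their highest fitted level at ZT1 (27.3% of all genes) and 6 their lowest at ZT19 (46.0% of all genes). A cosine of 24 h period fitted none of the 10 at an adjusted p under 0.05, against 0.0312% of all genes, and none at an unadjusted p under 0.05, against 9.23%. In bulk RNA, fewer cells of a type and less RNA per cell cannot be told apart, so each level below describes the sorted pool.

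**Figure D2:**
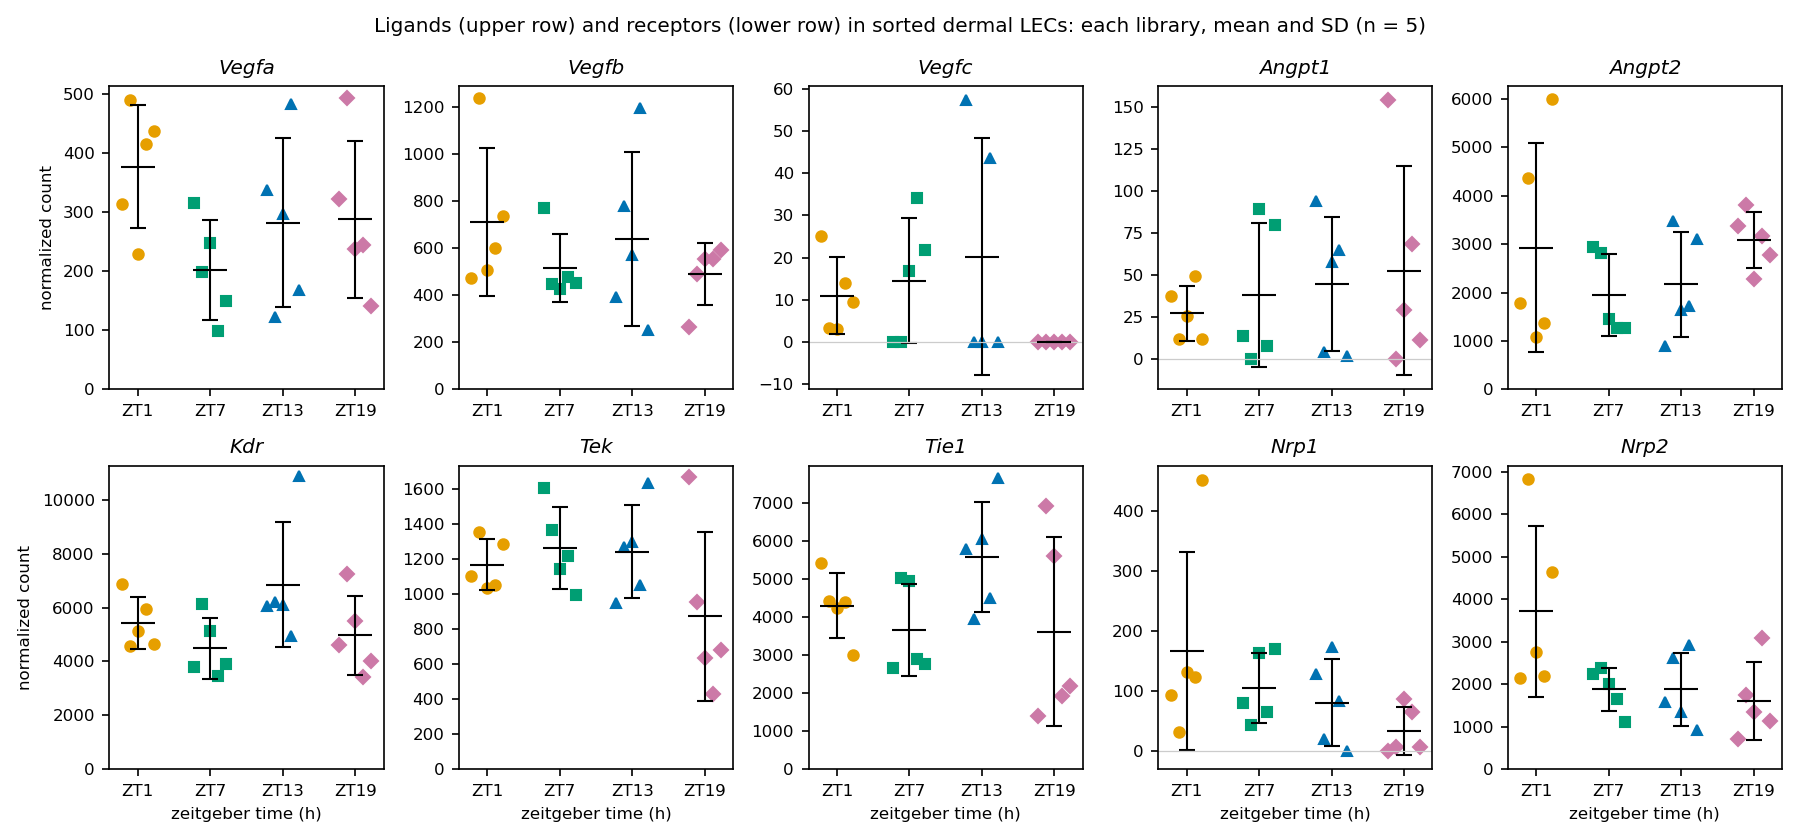
Normalized counts of each gene by zeitgeber time, with a point for each library and the mean and SD of 5 libraries in black; every panel has its own linear axis. Any pair of time points overlaps in every panel except ZT1 and ZT19 of Vegfc, where all 5 libraries at ZT19 lie at 0 and all 5 at ZT1 above it.

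Among the ligands, Vegfa was measured with counts of 66 to 1496 per library. Its gene lies at chr17:46016993-46032369 on the minus strand of mm10. Normalized counts of Vegfa were 315, 490, 229, 416 and 438 at ZT1 and 316, 198, 248, 98 and 150 at ZT7. They were 338, 123, 298, 484 and 169 at ZT13 and 323, 494, 237, 245 and 140 at ZT19. ZT1 was high and ZT7 low, but 2 libraries at ZT1 lay within the range at ZT7. The mean was 378 ± 105 at ZT1 and 202 ± 84.4 at ZT7 (SD, n = 5 each), a log2 fold change of -0.90 ± 0.44 (SE), with an unadjusted p of 0.0503 and an adjusted p of 0.999 in edgeR.

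Vegfb, which binds VEGFR-1 rather than VEGFR-2 or VEGFR-3, lies at chr19:6982473-6987651 on the minus strand. Its normalized counts were 471, 1240, 505, 599 and 738 at ZT1 and 769, 449, 425, 478 and 451 at ZT7. They were 393, 777, 569, 1197 and 253 at ZT13 and 265, 490, 552, 555 and 591 at ZT19. The 4 groups overlapped, and single libraries at ZT1 and ZT13 were the highest. Per kb, Vegfb exceeded Vegfa in 20 of 20 libraries, by a median of 5.97-fold (2.19-fold to 16.9-fold). The fitted range of Vegfb over the day was 0.53 on the log2 scale, with an adjusted p of 0.746 in edgeR.

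Vegfc, the main lymphatic growth factor, was at the limit of detection. Its gene lies at chr8:54077606-54187096 on the plus strand. Raw counts were 19, 2, 2, 9 and 4 at ZT1 and 0, 0, 8, 23 and 17 at ZT7. They were 38, 0, 0, 41 and 0 at ZT13 and 0 in all 5 libraries at ZT19. Thus ZT1 and ZT19 did not overlap, which was also so for 8.56% of all genes tested, and 5 libraries outside ZT19 held no read either. The summed 36 reads at ZT1 came to 1.10 CPM of effective library size, at least 43.2-fold above the level that 3 counts over the whole group at ZT19 would give. By the same floor, ZT19 was at least 39.5-fold below ZT7 and at least 38.0-fold below ZT13, and such limits cover counting error only, since reads are not independent molecules. They rest on single libraries. The limit for ZT1 was 27.0-fold without ZT1 replicate 1, and that for ZT7 was 24.2-fold without ZT7 replicate 4 and 64.8-fold without ZT7 replicate 2. For ZT13 it was 21.6-fold without ZT13 replicate 1, 20.8-fold without replicate 4 and 95.7-fold without replicate 5. Without ZT19 replicate 1, the deepest library there, the limits were 27.9-fold, 25.5-fold and 24.6-fold from ZT1, ZT7 and ZT13. None of these differences was called: edgeR gave adjusted p-values of 0.0969 from ZT1 to ZT19, 0.107 from ZT7 and 0.0911 from ZT13, in comparisons that called 0.0156%, 0.0156% and 0.588% of all genes.

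The count of Vegfc moved with the share of reads on genes. The 10 libraries with a Vegfc read had 12.7% to 29.5% of reads on genes, and the 10 without had 20.1% to 81.6%. Across 20 libraries, Vegfc and the log2 odds of a read falling on a gene had Pearson's r of -0.74 (permutation p = 0.00027, adjusted p = 0.00135 over 10 relations) and Spearman's rho of -0.74 (permutation p = 0.00041, adjusted p = 0.00205). Centred on each time point the r was -0.60, and it was -0.75 once the 2 libraries with the most extreme share were dropped. When edgeR was given this share as a term, the adjusted p for Vegfc from ZT1 to ZT19 was 0.799. Fitted log2 fold changes of a gene without reads in a group depend on the prior count and are no bounds, and with this term they went from -6.87 to -1.86 for ZT1 to ZT19, from -7.27 to -0.92 for ZT7 to ZT19 and from -7.74 to -2.59 for ZT13 to ZT19. DESeq2 did call Vegfc, with adjusted p-values of 0.0298 from ZT1, 0.0153 from ZT7 and 0.0121 from ZT13 to ZT19, in comparisons where it called 10.4%, 10.8% and 9.26% of the genes to which it gave an adjusted p. Without the library ZT13 replicate 5, edgeR called the difference from ZT13 to ZT19 with an adjusted p of 0.0449, along with 4.30% of all genes. Fitted on ZT1 and ZT19 alone, edgeR called Vegfc with an adjusted p of 0.0418, along with 6.57% of all genes. Over 30 alternatives the adjusted p for Vegfc ran from 0.0298 to 0.799 between ZT1 and ZT19, from 0.0153 to 0.936 between ZT7 and ZT19, and from 0.0121 to 0.678 between ZT13 and ZT19.

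**Figure D3:**
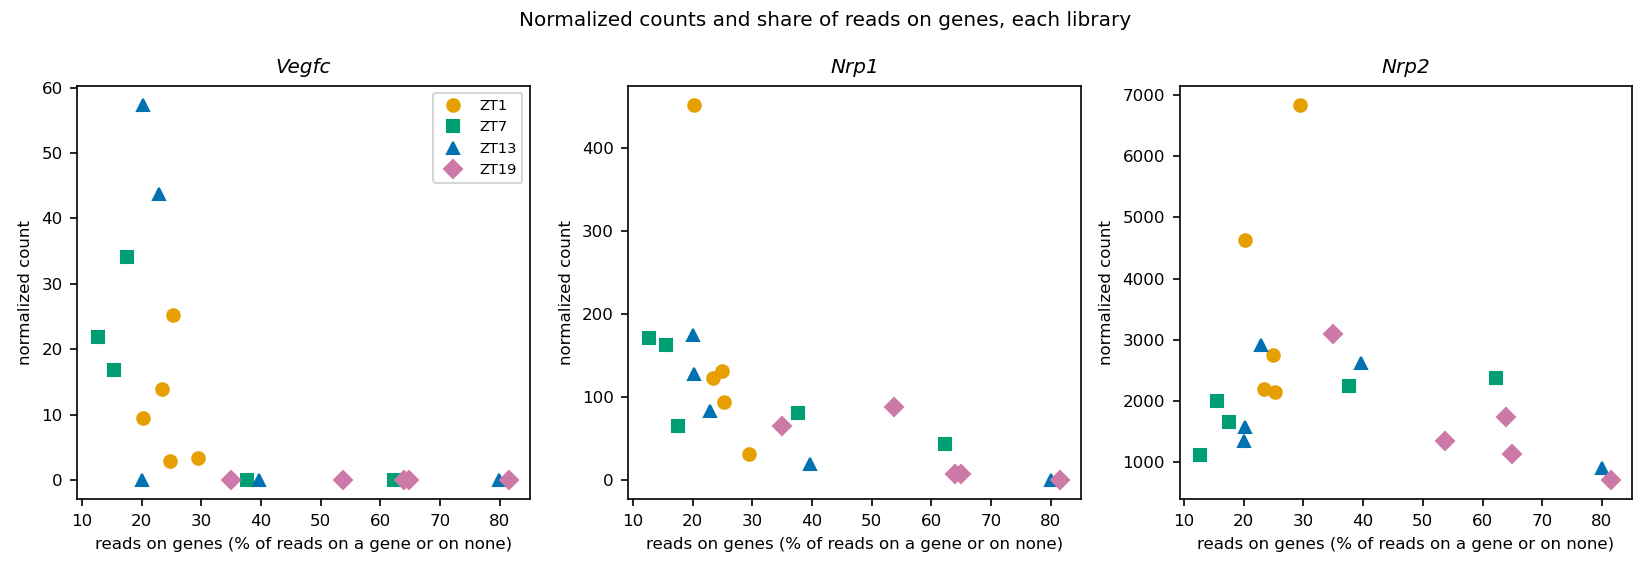
Normalized counts of Vegfc, Nrp1 and Nrp2 against the percentage of reads on genes, a point for each library and a symbol for each time point. Vegfc and Nrp1 are low or at 0 in the libraries above 60%, whereas Nrp2 is present in every library and highest in 2 libraries at ZT1.

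The angiopoietin ligands differed in level. Angpt1 lies at chr15:42424723-42676977 on the minus strand, and 14.2% of its exon bases are shared with an antisense gene, Gm17473, which was not counted. Raw counts of Angpt1 ran from 0 to 604, with no read in 2 libraries, and its normalized counts were 27.2 ± 16.4 at ZT1, 37.9 ± 42.7 at ZT7 and 44.5 ± 40.1 at ZT13, compared with 52.5 ± 62.5 at ZT19 (SD, n = 5 each). The mean at ZT19 rests on replicate 1 with 154, while the other libraries there had 0 to 68. The time points overlapped and the adjusted p in edgeR was 0.973. Angpt2 lies at chr8:18690263-18741562 on the minus strand, inside Mcph1 on the other strand with which it shares no exon base. Its normalized counts were 1786, 4367, 1083, 1377 and 6008 at ZT1 and 2938, 2824, 1460, 1271 and 1264 at ZT7. They were 904, 3486, 1632, 1725 and 3109 at ZT13 and 3375, 3815, 2280, 3169 and 2780 at ZT19. The spread at ZT1 was wide (2924 ± 2160) and at ZT19 narrow (3084 ± 584), and the groups overlapped. Angpt2 rose with the share of reads on genes, with r of 0.54 (permutation p = 0.0141, adjusted p = 0.047 over the 10 relations) and rho of 0.58 (permutation p = 0.00796, adjusted p = 0.0265). Centred on each time point this r was 0.49, and it was 0.52 with the 2 most extreme libraries dropped. Per kb, Angpt2 exceeded Angpt1 in all 18 libraries with reads of both, by a median of 66.6-fold (13.6-fold to 2256-fold), and the other 2 libraries held Angpt2 only. The ratio of Angpt2 to Angpt1 did not pass the exact permutation test between any pair of time points, with adjusted p-values from 0.926 to 0.936.

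Of the receptors, Kdr (chr5:75932827-75978458, minus strand) had counts of 1938 to 50419 per library. Normalized counts of Kdr were 6884, 4576, 5114, 5933 and 4641 at ZT1 and 3800, 6122, 5139, 3449 and 3897 at ZT7. They were 6066, 6216, 6109, 4948 and 10889 at ZT13 and 4625, 7232, 5514, 3421 and 4022 at ZT19. ZT13 replicate 5 stood above all other libraries. From ZT7 to ZT13 the log2 fold change was 0.61 ± 0.33 (SE), with an unadjusted p of 0.0728 and an adjusted p of 0.9999 in edgeR, in a comparison that called 0.0937% of all genes. The 10 blood endothelial markers summed to 14193 normalized counts in ZT13 replicate 5, rank 2 of 20, and to 18094 in ZT13 replicate 2, the highest, where Kdr was at 6216. Over ZT1, ZT7 and ZT19 this sum ran from 4765 to 12703, and its part in the level of Kdr was not tested. The highest levels on that list were those of Emcn with 4061 ± 1877, Plvap with 2368 ± 1621 and Gja4 with 1906 ± 901 normalized counts. Flt1 had 99.2 ± 76.6 and Esm1 7.85 ± 15.8 (SD, n = 20 for each). In ZT13 replicate 5 the 6 pan-endothelial markers also ranked 3 of 20 and the LEC markers 5 of 20.

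Tie1 (chr4:118471191-118490061, minus strand) had normalized counts of 5418, 4429, 4241, 4387 and 3010 at ZT1 and 2668, 5034, 4942, 2882 and 2760 at ZT7. They were 5791, 3935, 6046, 4491 and 7646 at ZT13 and 1402, 6927, 5605, 1927 and 2186 at ZT19. At ZT19 the libraries split into 2 high and 3 low values, and the groups overlapped. Tek (chr4:94739289-94874976, plus strand) had normalized counts of 1166 ± 146 at ZT1, 1265 ± 234 at ZT7 and 1242 ± 264 at ZT13, compared with 874 ± 482 at ZT19 (SD, n = 5 each). At ZT19 the Tek counts were 1668, 957, 637, 430 and 677, so that 1 library was above the others. Per kb, Tie1 exceeded Tek in 19 of 20 libraries, by a median of 3.96-fold, and ZT19 replicate 1 was the exception with 0.805-fold. The adjusted p among time points was 0.680 for Tie1 and 0.666 for Tek in edgeR.

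The co-receptor Nrp2 had the lowest p-value among the members in edgeR's test among the 4 time points and was highest at ZT1. This unadjusted p was 0.0204, close to the 0.0232 of Vegfc. Without ZT1 replicate 2 it was 0.186 for Nrp2 and 0.0281 for Vegfc. Between pairs of time points Vegfc had the lowest unadjusted p in edgeR, 0.00262 from ZT13 to ZT19. The Nrp2 gene lies at chr1:62703285-62818695 on the plus strand. Normalized counts were 2157, 6839, 2759, 2205 and 4633 at ZT1 and 2240, 2384, 2008, 1659 and 1114 at ZT7. They were 1587, 2617, 1347, 2924 and 914 at ZT13 and 709, 1738, 1346, 3093 and 1141 at ZT19. The mean at ZT1 rests on replicates 2 and 5, and the other 3 libraries lay within the range of the later time points. The mean was 3719 ± 2014 at ZT1, 1881 ± 509 at ZT7 and 1878 ± 857 at ZT13, compared with 1605 ± 911 at ZT19 (SD, n = 5 each). Against ZT1, the log2 fold change was -0.98 ± 0.41 at ZT7 (unadjusted p = 0.0245, adjusted p = 0.909 in edgeR), -0.99 ± 0.41 at ZT13 (0.0241 and 0.772) and -1.21 ± 0.41 at ZT19 (0.00689 and 0.104). These 3 comparisons share the ZT1 libraries. The unadjusted limit of 0.05 was passed by 4.97%, 5.37% and 21.6% of all genes in them, and the adjusted limit by 0.00521%, 0.0208% and 0.0156%. From ZT7 to ZT19 and from ZT13 to ZT19 the log2 fold change of Nrp2 was -0.23. Among the 4 time points its adjusted p was 0.248 in edgeR and 0.0801 in DESeq2.

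The difference of Nrp2 from ZT1 to ZT19 depended on the tool and on single libraries. DESeq2 called it, with an adjusted p of 0.0161, in a comparison where it called 10.4% of genes. Without ZT19 replicate 4, the highest library at ZT19, edgeR called it with an adjusted p of 0.0362, along with 4.55% of all genes. Without the 5 libraries above 60% of reads on genes the log2 fold change was -0.74 with an adjusted p of 0.632 in edgeR, and when this share was a term of the fit it was -0.96 with an adjusted p of 0.552. Without ZT1 replicate 2, the highest library of all, it was -0.88 with an adjusted p of 0.221. Over all 30 alternatives the adjusted p ran from 0.0161 to 0.632 and the log2 fold change from -1.60 to -0.74. Across libraries, Nrp2 and the log2 odds of a read falling on a gene had r of -0.44 (permutation p = 0.0517, adjusted p = 0.103) and rho of -0.20 (permutation p = 0.406, adjusted p = 0.677), with r of -0.27 after centring on each time point and -0.10 when the 2 most extreme libraries were dropped. At ZT1 the 10 fibroblast markers summed to 6373 to 18511 normalized counts. Their sum was 963 to 4583 at ZT7, 736 to 9745 at ZT13 and 1249 to 13187 at ZT19. The highest sum lay in ZT1 replicate 1, where Nrp2 was at 2157. In ZT1 replicates 2 and 5 the fibroblast sum ranked 3 and 4 of 20. There the LEC markers ranked 3 and 2, the 6 pan-endothelial markers 2 and 4, and the 6 Schwann cell markers 2 and 1. The part of any of these lists in the level of Nrp2 was not tested. Of the 10 fibroblast markers, 1 was called among the time points, Ccdc80.

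**Figure D4:**
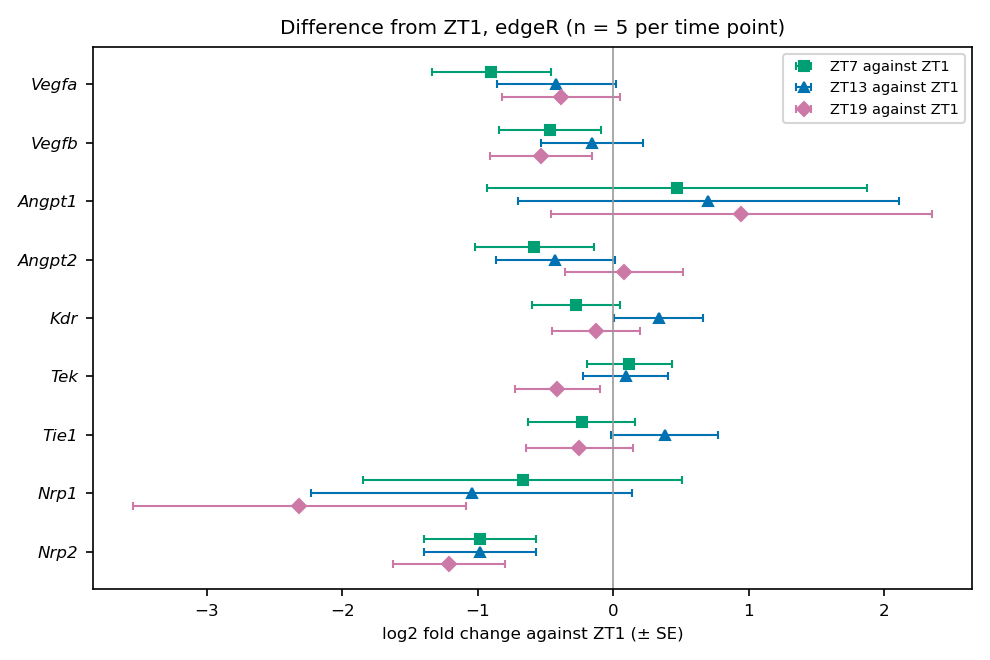
Log2 fold change of ZT7, ZT13 and ZT19 against ZT1 from edgeR, with bars of 1 SE, for 9 of the 10 genes; Vegfc is left out because its value at ZT19 has no finite fold. Nrp2 lies furthest from 0 in units of its SE, with -0.98, -0.99 and -1.21, and Nrp1 and Angpt1 have the widest bars.

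Nrp1 (chr8:128358604-128503363, plus strand), the other neuropilin, had raw counts of 71, 19, 88, 80 and 189 at ZT1 and 66, 77, 77, 44 and 133 at ZT7. They were 85, 19, 88, 78 and 0 at ZT13 and 0, 22, 136, 51 and 13 at ZT19. Its normalized counts were 167 ± 164 at ZT1 and 33.6 ± 40.3 at ZT19 (SD, n = 5 each), a log2 fold change of -2.32 ± 1.23 (SE) with an adjusted p of 0.269 in edgeR. The mean at ZT1 rests on replicate 5 with 453 normalized counts, while the other libraries there had 32 to 132. The count of Nrp1 moved with the share of reads on genes, with r of -0.88 and rho of -0.83 (permutation p = 1e-05, the smallest possible, and 2e-05; adjusted p = 0.0001 and 0.0002). Centred on each time point this r was -0.84, and it was -0.77 with the 2 most extreme libraries dropped. Per kb, Nrp2 exceeded Nrp1 in all 18 libraries with reads of both, by a median of 19.9-fold (5.38-fold to 198-fold), and the other 2 libraries, ZT13 replicate 5 and ZT19 replicate 1, held no read of Nrp1. The fold depends on the length used. With all exons the means per kb were 192 for Nrp2 and 9.88 for Nrp1, and with the longest transcript they were 338 and 26.5. With all exons, the median fold per kb was 17.2 at ZT1, 20.98 at ZT7 and 19.6 at ZT13, compared with 85.1 at ZT19. The medians at ZT13 and ZT19 rest on 4 libraries each. The folds ran from 12.7 to 198 at ZT19 and from 8.46 to 177 at ZT1, and so overlapped. On log2 ratios within a library, the smallest p of the exact two-sided permutation test for this pair was 0.0556, from ZT7 to ZT19, with an adjusted p of 0.381 over 24 tests of 4 ratios. The smallest of the 24 was that of Vegfc to Vegfa from ZT1 to ZT19, with an exact permutation p of 0.00794, which is the smallest possible, and an adjusted p of 0.190. No size is given for it, since Vegfc had no read at ZT19 and its ratio there rests on the 1 added to each value.

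Of the 45 pairs of members, 2 varied together across the 20 libraries at an adjusted permutation p under 0.05 for Pearson's r. Kdr and Tie1, which are both endothelial receptor kinases, had r of 0.79 (permutation p = 6e-05, adjusted p = 0.00225) and rho of 0.82 (permutation p = 2e-05, adjusted p = 0.0009). Centred on each time point their r was 0.75, it ran from 0.73 to 0.94 in the single time points, and it was 0.74 with the 2 most extreme libraries dropped. Vegfb and Nrp2 had r of 0.77 (permutation p = 0.0001, adjusted p = 0.00225) and rho of 0.65 (permutation p = 0.0024, adjusted p = 0.054). Their r was 0.77 after the same centring, with 0.93 at ZT1, 0.33 at ZT7 and 0.92 at ZT13, compared with 0.66 at ZT19, and it was 0.68 with 2 libraries dropped in the same way. Nrp2 and Nrp1 were not such a pair, nor were Tek and either angiopoietin. Centred on each time point, Nrp1 and Tek also passed, with r of -0.72 (adjusted permutation p = 0.00885). Without centring their r was -0.24, and it was 0.20 with the 2 most extreme libraries dropped. The points share their library, and with it depth and the share of reads on genes.

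**Figure D5:**
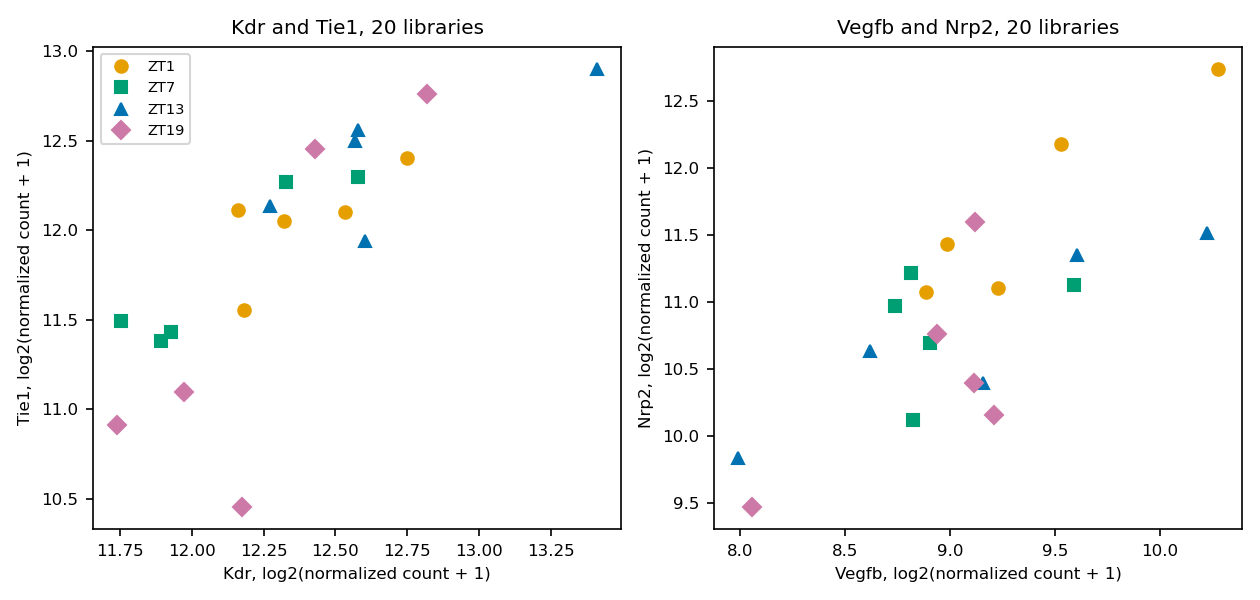
Log2 of normalized counts plus 1 for Kdr against Tie1 and for Vegfb against Nrp2, a point for each of the 20 libraries and a symbol for each time point. Both pairs rise together, with r of 0.79 and 0.77, and the time points are mixed along each trend apart from 2 libraries at ZT1 at the upper right of the second panel.

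Across all tested genes, those whose log2 level was most like Kdr over the 20 libraries were Pecam1 (r = 0.84), Fzd9 (r = 0.82) and Skiv2l (r = 0.81). Pecam1 encodes CD31, on which the cells were sorted. Tie1 was most like Ehd2 (r = 0.89), a membrane-shaping protein of caveolae, Eml1 (r = 0.88) and Plekho2 (r = 0.87), and Nrp2 was most like Ddx21 (r = 0.92), Igfbp5 (r = 0.91) and Rock1 (r = 0.91). Angpt2 was most like Vbp1, Gimap6 and Fxyd6 (r = 0.89 for each), and Vegfb like Pdp2 (r = 0.89), Rnf214 (r = 0.87) and Kifap3 (r = 0.84). Vegfa was most like Mms19 (r = 0.78), Mtmr1 (r = 0.75) and Opa1 (r = 0.74), and Tek like Prkcq (r = 0.81), Pcmtd2 (r = 0.77) and Tmem30a (r = 0.77). For the low genes the nearest were Kazn (r = 0.96), Tpte (r = 0.95) and Dux (r = 0.95) for Nrp1, and Apoa5 (r = 0.97), Asic4 (r = 0.96) and Lce1f (r = 0.96) for Vegfc. Those for Angpt1 were Xpnpep2 (r = 0.91), Mcm10 (r = 0.86) and Tmem179 (r = 0.79). These are the highest of 19209 values each, given as a description.

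Of 36 other genes of these pathways, 1 was called among the time points by edgeR, against 0.422% of all genes, and 0 of the 36 by the 24-h curve, against 0.0312%. The called gene was Ldha, lactate dehydrogenase A, a hypoxia gene like Vegfa, with 2514 ± 521 normalized counts at ZT1, 2840 ± 1215 at ZT7 and 1815 ± 407 at ZT13, compared with 6193 ± 2598 at ZT19 (SD, n = 5 each; adjusted p = 0.0451 in edgeR). Of the 12 hypoxia genes, 7 passed an unadjusted p of 0.05, against 15.7% of all genes, and of these Epas1, encoding HIF-2α, had 2761 ± 1253 at ZT1 and 623 ± 407 at ZT19. The direction among the 7 was mixed, with the highest level at ZT19 for Ldha, Pgk1, Bnip3, Vhl and Slc2a1 and at ZT1 for Epas1 and Egln3. The summed keratinocyte markers were also highest at ZT19, and their part in these levels was not tested. None of the 5 other ligands and receptors, the 4 genes of ligand processing and matrix, the 8 receptor partners or the 7 downstream genes was called. Flt4, the receptor of VEGF-C, had 1263 ± 439 normalized counts per kb (SD, n = 20), and Kdr was below it in 19 of 20 libraries with a median ratio of 0.480.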

How the data were processed

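RNA of sorted dermal LECs was reverse transcribed with the SMART-Seq v4 kit, made into NexteraXT libraries and sequenced as single reads of 100 nt. The authors mapped reads to mm10 with STAR and deposited raw counts per gene from HTSeq-count, Galaxy version 1.0.0. They tested with DESeq2, Galaxy version 2.11.40.6. The study's methods give both as Galaxy versions. The annotation and the strand setting are not given in the sources used here. Unstranded counting cannot separate a gene from an antisense partner.

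Counts of the 20 libraries were tested with edgeR 4.0.16 (R 4.3.3) by a quasi-likelihood fit with TMM scaling, filterByExpr by time point and Benjamini-Hochberg adjustment over 19209 genes. Reads on no gene were left out of library sizes. Normalized counts are counts over effective library size, scaled to its geometric mean. Ratios and correlations used log2 of normalized counts plus 1. Exon lengths came from GENCODE vM21 for GRCm38 and covered 98.5% of symbols. Permutation tests were two-sided, exact for ratios and with 100000 draws for correlations. Scripts were tested on simulated data. No 2 libraries of the same time point agreed within sampling noise. Replicates are separate pools of ears, so p-values measure the spread between pools. Named genes were the members, genes of the pathway lists that were called or lead a group, and the 3 genes most like each member. The other hypoxia genes and the markers named were chosen outside this rule, after their values were seen. The members, by symbol, and the lists were chosen with earlier results of these data known. Alternatives were DESeq2 1.42.0, other scalings and filters, a replicate block, the share of reads on genes as covariate, pairs of time points alone, thinned counts and leaving out libraries.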

Additional observations from a re-analysis of the deposited data

Results flagged for a closer look

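Within groups of 5 libraries, 3 of 39 groups of member values held a library far from the others by Dixon's gap ratio on log2 of normalized counts plus 1, against 1.95 that chance would give. Vegfb in ZT7 replicate 1 was high, with 769 normalized counts and a gap ratio of 0.802. Vegfb in ZT19 replicate 1 was low, with 265 normalized counts and a gap ratio of 0.767, although on normalized counts without the log the ratio was 0.692, under the critical value of 0.71. Kdr in ZT13 replicate 5 was high, with 10889 normalized counts and a gap ratio of 0.711. The share of reads on genes was 37.7% in ZT7 replicate 1, 81.6% in ZT19 replicate 1 and 79.9% in ZT13 replicate 5, and its part in these values was not tested.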

How the results depend on the processing

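No member was called among the time points, for the 24-h curve or between ZT1, ZT7 and ZT13 under any alternative run, the replicate block included. Exceptions involved ZT19. DESeq2 called 2 members from ZT1 to ZT19 (Nrp2 and Vegfc) and 1, Vegfc, from ZT7 to ZT19 and from ZT13 to ZT19, and the fit of ZT1 and ZT19 alone called 1, Vegfc (adjusted p = 0.0418). The same fits of DESeq2 called 10.4%, 10.8% and 9.26% of genes, against 2, 1 and 1 of the 10 members, and that of ZT1 and ZT19 alone 6.57%, against 1 of 10. Leaving out each library in turn gave 0 to 1 members called from ZT1 to ZT19 and 0 to 1 from ZT13 to ZT19, and 0 otherwise. The libraries that changed this were ZT19 replicate 4 for Nrp2 and ZT13 replicate 5 for Vegfc.

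Counts over all genes moved more. DESeq2 called 569 among time points, 13 from ZT1 to ZT7, 64 from ZT1 to ZT13, 1987 from ZT1 to ZT19, 80 from ZT7 to ZT13, 2079 from ZT7 to ZT19, 1775 from ZT13 to ZT19 and 75 by the curve, against 81, 1, 4, 3, 18, 3, 113 and 6 in edgeR. In the same order of comparisons, the replicate block gave 31, 0, 1, 0, 12, 0, 58 and 0, the share of reads on genes as covariate 49, 4, 3, 0, 19, 1, 54 and 3, and leaving out the 5 libraries above 60%, an alternative chosen after seeing the data, 21, 0, 0, 1, 0, 1, 43 and 1. Upper quartile scaling gave 52 among time points, 9 from ZT1 to ZT13 and 11 from ZT1 to ZT19, and relative log expression 0 from ZT1 to ZT7, 9 from ZT1 to ZT13 and 24 from ZT1 to ZT19. Fits of only the time points compared gave 2, 0, 1262, 6, 0 and 39 for the pairs in that order, and thinned counts 17 from ZT1 to ZT19, 28 from ZT7 to ZT13 and 1 from ZT7 to ZT19. Leaving out each library gave 30 to 178 among time points, 0 to 1 from ZT1 to ZT7, 0 to 8 from ZT1 to ZT13, 0 to 902 from ZT1 to ZT19, 2 to 36 from ZT7 to ZT13, 0 to 4 from ZT7 to ZT19, 63 to 853 from ZT13 to ZT19 and 0 to 10 by the curve. The cause of these shifts was not tested.

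The lengths of the longest transcripts changed the rank of 4 members per kb. Same-numbered libraries came from other mice and deviated together unevenly, with correlations from -0.55 to 0.35. Between ZT1 and ZT13 these ran from 0.088 to 0.33, and every other pair of time points held both signs. What the numbers mark is not given in the sources used here, and whether same-numbered libraries share a batch was not tested. The relation with the share of reads on genes changed its sign without the 2 most extreme libraries for Vegfb (r of -0.41 and 0.03), Tek (0.11 and -0.27) and Tie1 (-0.07 and 0.05). Centred on each time point, this r was 0.70 for Tek, 0.61 for Kdr and -0.59 for Angpt1. Without centring it was 0.11, 0.37 and -0.45. Differences between pairs of time points were recomputed for Nrp2 from ZT1 and for Vegfc to ZT19 only, and these kept their direction. Counts of Vegfc, Nrp1 and Angpt1 were too low for firm folds.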
